A study of Capra hircus with 9 samples.

Results

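The 3 day 16 libraries of a uterine time course in Liaoning Cashmere goats (Capra hircus), a fibre breed, were compared with the mean of the 3 day 6 and the 3 day 19 libraries, each of these days given equal weight. The comparison asks which genes peaked or dipped at day 16. The day 16 group thus makes up 3 of the 9 libraries of the series, and it is described over the 16098 genes that passed a filter on low counts, of 25671 gene rows. Poly(A) RNA was sequenced on an Ion Proton and counted per gene, and the labels place the 3 days around implantation. The tissue is uterus in 1 label field, endometrial epithelium in the series title and testis in the treatment protocol. The labels give neither the event that starts the day count, nor the reproductive state or age of the goats, nor any treatment or genotype, and the 3 groups differ in them by day alone. They also do not say that libraries of a day are from different animals, so each p-value reflects library-to-library spread that could be partly technical.

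In ruminants the conceptus lengthens into a filament before it attaches, and over that time it is fed by secretions of the uterine glands and lining, a mixture called histotroph. The conceptus releases interferon tau, which prevents the loss of the corpus luteum and induces interferon-stimulated genes in the uterus, while progesterone prepares the epithelium for attachment. Transporters of sugars and amino acids, binding proteins of growth factors, prostaglandin enzymes and adhesion proteins are among the epithelial genes known to change over this period.

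The libraries held 8712751 to 11074693 counts (8712751 to 10330038 at day 16), and no pair agreed within sampling noise (lowest chi-square per degree of freedom within a group 9.86). Day 19 replicate 1 stood apart from its group. Its Spearman correlation over genes was 0.894 and 0.897 with the other day 19 libraries and 0.954 on average with the day 16 libraries. Cytosolic ribosomal protein genes held 2.78% of its counts, against 7.37% and 6.34% in day 19 replicates 2 and 3. In the day 16 libraries this share was 4.22% to 4.85%, and 4.13% to 4.44% in those of day 6. Day 19 enters every comparison given here, so counts are also given without that library. Epithelial, stromal, muscle and endothelial markers were present in all 9 libraries, while 5 of the 16 testis germ cell markers in the table (SYCP3, TNP1, ODF1, SPATA16 and TSSK2) had 0 counts throughout. Those 16 summed to 40.9 to 55.2 CPM in the day 16 libraries, against 22.4 to 48.8 for day 6 and 24.8 to 34.5 for day 19, and 0 of the 4 tested were called (edgeR; 2 higher at an unadjusted p under 0.05). The shares over all genes tested were 2.39% called and 8.67% higher at that unadjusted p.

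Against the mean of the other days, 277 genes were higher at day 16, which is 1.72% of all genes tested, and 107 were lower, which is 0.665% (edgeR quasi-likelihood test, Benjamini-Hochberg adjusted p under 0.05). Of these, 239 and 75 differed by at least 1 on the log2 scale. At an unadjusted p under 0.05 the counts were 1395 (8.67%) and 1169 (7.26%). A difference from that mean is not in itself a peak or a dip, since a gene that is low at day 6 and equally high on both later days also shows it. In 121 of the 277 higher genes (0.752% of all genes) all 3 day 16 libraries lay above the 6 other libraries, and in 46 of the 107 lower genes (0.286%) they lay below. Below, a peak or a dip is such a gene, called against the mean and without overlap between day 16 and the other libraries. Such a gene need not be called against day 19 alone, and its contrast can come mainly from day 6. Without regard to the test, 485 genes (3.01%) lay above and 388 (2.41%) below in this way. A further 76 higher and 44 lower genes were set apart from day 6 only, with a change of at least 1 against day 6 and under 0.5 against day 19. The same held against day 19 only for 3 and 3 genes.

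**Figure D1:**
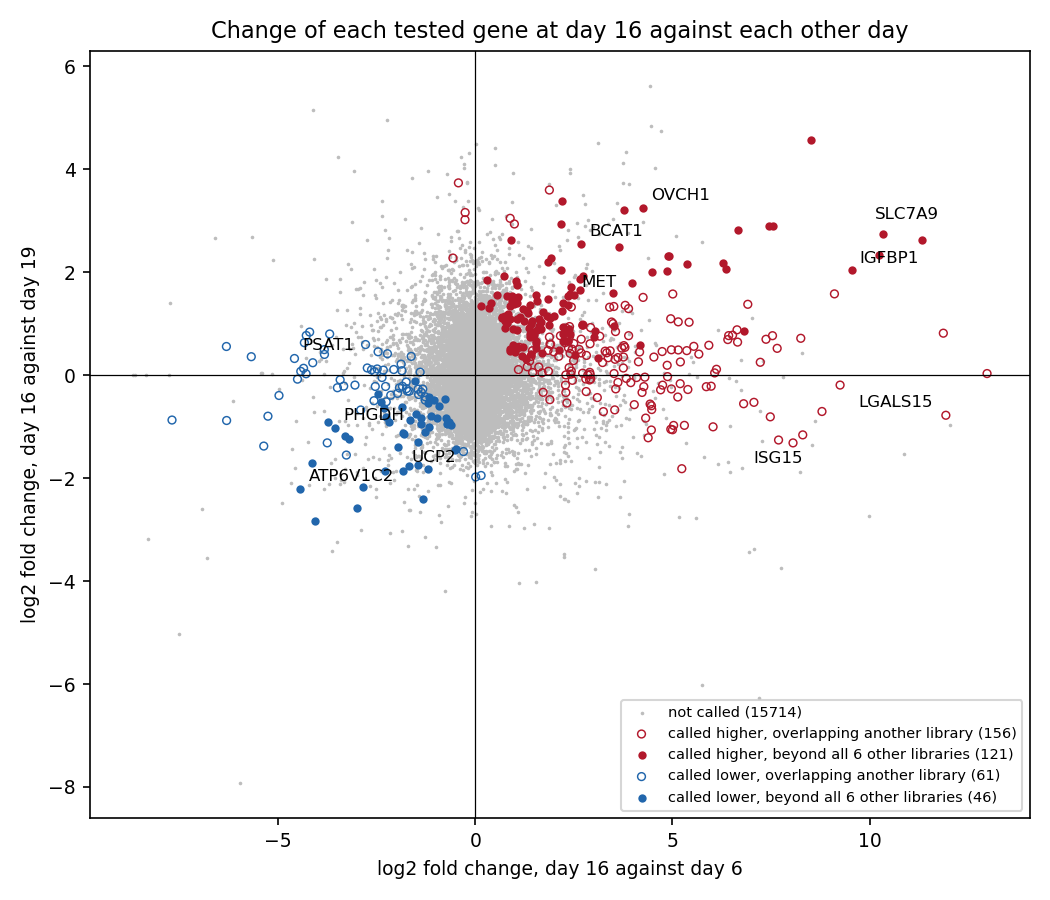
Each point is 1 of 16098 tested genes, placed by its log2 fold change at day 16 against day 6 (horizontal axis) and against day 19 (vertical axis). Red and blue mark genes called higher and lower against the mean of both days, filled where the day 16 libraries lay beyond all 6 others (121 and 46 genes). Filled points lie mainly at the upper right and lower left, and open points such as ISG15 and LGALS15 lie along the horizontal line.

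A stricter question is whether a gene differs from day 6 and from day 19 at once. Taking the larger of the 2 p-values of a gene and adjusting it over all genes, edgeR called 0 peaks and 0 dips (lowest adjusted p = 0.27), with 280 (1.74%) and 227 (1.41%) at an unadjusted p under 0.05. DESeq2 called 32 peaks and 16 dips on that rule, and limma voom with sample quality weights 106 and 38. Without day 19 replicate 1, edgeR called 65 and 38, and it called 0 and 0 without any 1 of the other 8 libraries. When each pairwise comparison was adjusted on its own, a rule added after the data were seen, 18 genes (0.112%) were higher and 7 (0.0435%) lower at day 16 in both. All 25 are among the peaks and dips. Every other peak or dip was not called against day 6 alone, against day 19 alone, or against either. Without day 19 replicate 1 these counts were 488 and 390, and without any 1 of the other libraries they were 0 to 2 and 0. In the comparison with day 19 alone, 193 genes were called with all libraries, 0 to 16 without any 1 library other than day 19 replicate 1, and 7331 without day 19 replicate 1.

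For 38 of the 121 peaks the day 6 and day 19 levels lay within 0.5 of each other on the log2 scale. By sign, 88 peaks were higher at day 19 than at day 6 and 33 were lower, and 43 and 7 of these differences were called. The library nearest to the day 16 group was day 19 replicate 1 for 42 peaks, day 19 replicate 2 for 34, day 19 replicate 3 for 14 and a day 6 library for 31. Among the 46 dips the order was the reverse, with 34 lower at day 19 than at day 6 and 12 higher (19 and 2 called). Day 19 replicate 1 was the nearest library for 27 dips. The highest day 16 library was replicate 1 for 56 peaks, replicate 2 for 29 and replicate 3 for 36.

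Several of the largest peaks encode membrane transporters. SLC7A9, the light subunit of a carrier for cystine and basic amino acids, stood at 0.186, 0 and 0.195 CPM (the count scaled to a common library total) in the day 6 libraries, at 173, 112 and 265 in those of day 16 and at 40.2, 30.6 and 11.1 in those of day 19. Every day 16 library was above every other, and day 19 lay between the other days. Its log2 contrast, the log2 level at day 16 minus the mean of the log2 levels at days 6 and 19, was 6.54, SE 0.49, adjusted p = 0.001 (edgeR, as for all contrasts below). With 4 counts over the day 6 libraries, the day 6 level is poorly known. The day 16 level was 6.72 times that of day 19.

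SLC5A1, the sodium-glucose cotransporter, gave 0.0928, 0 and 0.0975 CPM at day 6, then 88.2, 34.5 and 52.7 at day 16, and 4.66, 19.97 and 17.8 at day 19. Its 3 highest values were those of day 16, and day 6 was near 0. With 2 counts over 3 day 6 libraries, the day 16 to day 6 ratio was 903 with a 95% counting interval of 250 to 7470. The contrast was 5.81, SE 0.56, adjusted p = 0.0022, and the size of this contrast depends on the prior count added to so low a group. SLC36A2, a proton-coupled amino acid transporter, had 62.1, 81.2 and 52.2 CPM at day 16, compared with 2.60, 4.02 and 4.09 at day 6 and 51.7, 49.5 and 29.2 at day 19. The lowest day 16 library nearly touched the highest of day 19, and the contrast was 2.39, SE 0.24, adjusted p = 0.00233. Against day 19 alone SLC36A2 was not called (edgeR, adjusted p = 0.223). SLC11A2, which carries iron and other divalent metals into cells, had 102, 76.3 and 84.0 CPM at day 6, then 505, 407 and 303 at day 16, and 183, 264 and 183 at day 19. All 3 day 16 libraries were above the rest, with a contrast of 1.58, SE 0.20, adjusted p = 0.0055.

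EMB encodes embigin, a membrane glycoprotein that accompanies monocarboxylate transporters. Its level was 5.11 ± 3.77 CPM at day 6, then 152 ± 59.5 at day 16, and 30.6 ± 15.4 at day 19 (mean ± SD, n = 3 libraries, here and below). At day 16 it ranged from 104 to 218 CPM, above all other libraries, with a contrast of 3.59, SE 0.44, adjusted p = 0.00438. A locus described in the deposited table as monocarboxylate transporter 1-like (LOC102181743) had 53.0, 15.4 and 23.4 CPM at day 16, against 0 to 0.292 at day 6 and 1.69 to 8.39 at day 19. Replicate 1 was well above the other day 16 libraries, and the contrast of 5.17, SE 0.64, adjusted p = 0.00438 was 4.52 without it. The anion transporter SLC26A7 was at 16.2 ± 6.35 CPM at day 16, compared with 0.704 ± 0.366 at day 6 and 4.04 ± 3.19 at day 19. Its contrast was 3.24, SE 0.47, adjusted p = 0.00918, and the call was lost without day 16 replicate 1 (adjusted p = 0.059).

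Over all solute carriers, a grouping by gene symbol made after the values were seen, 13 of 234 tested were called higher (5.56%, against 1.72% of all genes tested) and 2 lower (0.665% of all genes). The peaks among the 13 were SLC5A1, SLC7A9, SLC11A2, SLC25A27, SLC26A7, SLC36A2 and SLC36A3. Of 28 amino acid transporters 2 were called higher, SLC7A9 and SLC36A2, both as peaks, and 0 lower. The list's median contrast was 0.25, against 0.0027 over all genes tested. SLC6A9, the glycine transporter, had all day 16 libraries below the others, at 28.0, 25.3 and 17.3 CPM against 32.8 to 44.2 at day 6 and 30.6 to 87.2 at day 19. It did not pass (adjusted p = 0.245; 0.0284 without day 19 replicate 1). Of 14 sugar transporters 3 were called higher and 0 lower (list median 0.15), of which SLC5A1 was a peak. SLC2A1, a facilitative glucose transporter, was called without being a peak. Its day 16 libraries, 455, 489.8 and 286 CPM, overlapped those of day 19, 282, 305 and 170.0 CPM (contrast 1.69, SE 0.22, adjusted p = 0.00605).

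**Figure D2:**
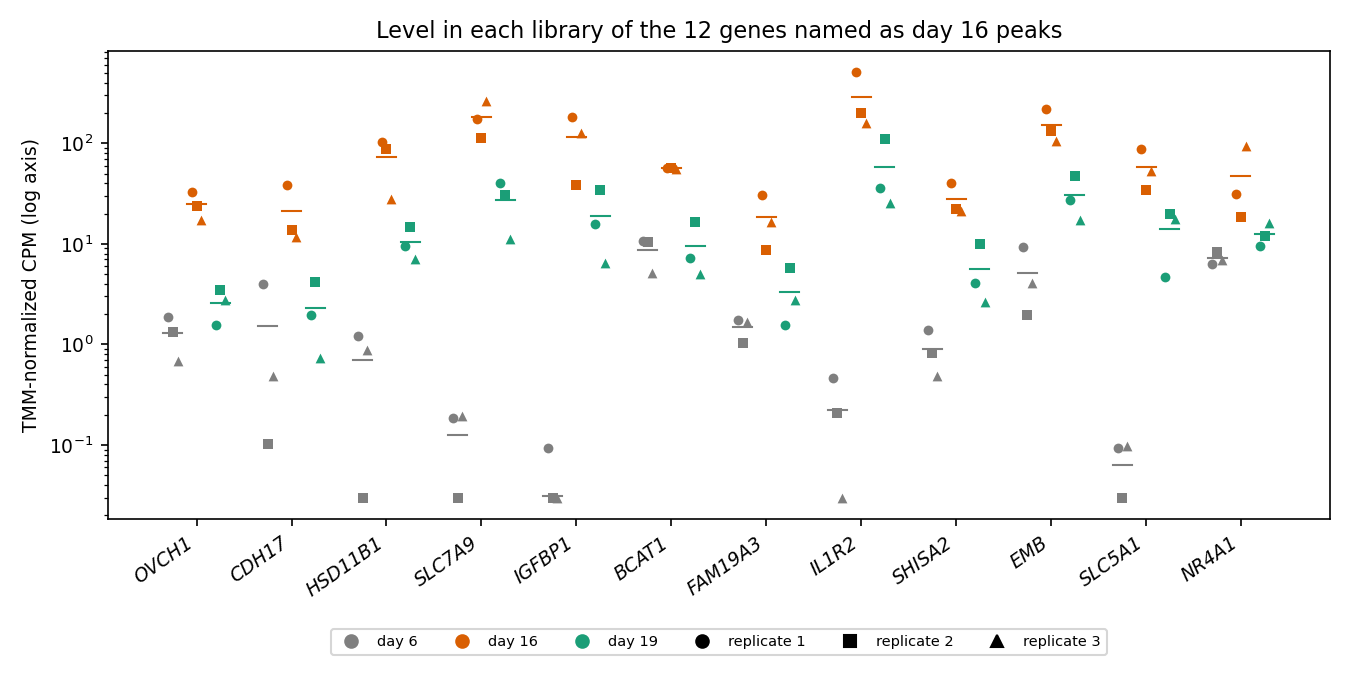
Level of 12 named peak genes in each library, in TMM-normalized CPM on a log axis; a value of 0 is drawn at 0.03 CPM. Colour gives the day, marker shape the replicate number, and the short line the mean of 3 libraries. In each of the 12 genes the 3 orange day 16 points lie above the 6 others, as the rule that chose these genes requires. For SLC7A9, IGFBP1, IL1R2 and SLC5A1 the day 6 libraries are at or near 0.

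Enzymes formed a further set of peaks. BCAT1, the cytosolic aminotransferase of leucine, isoleucine and valine, stood at 10.6, 10.4 and 5.17 CPM at day 6, then 56.3, 56.6 and 55.4 at day 16, and 7.29, 16.5 and 4.97 at day 19. The day 16 libraries lay within 2 CPM of each other, and the levels of day 6 and day 19 overlapped. The contrast was 2.62, SE 0.34, adjusted p = 0.00603. The day 16 level was 6.43 times that of day 6 and 5.85 times that of day 19 (9.09 times without day 19 replicate 2). HSD11B1, which regenerates active glucocorticoid from its inactive form, had 103, 88.4 and 28.0 CPM at day 16, compared with 1.21, 0 and 0.877 at day 6 and 9.42, 14.6 and 7.09 at day 19. Its day 16 libraries spread widely but stayed above the others, with a contrast of 4.74, SE 0.55, adjusted p = 0.00392. Of 23 genes of steroid and oxytocin signalling HSD11B1 was the 1 called higher, and 0 were called lower (list median -0.01). Among all genes tested 1.72% were called higher.

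TGM5, a transglutaminase that cross-links proteins, had 23.2, 14.8 and 11.2 CPM at day 16, compared with 0, 0 and 0.0975 at day 6 and 0, 1.20 and 0.846 at day 19. It was seen in every day 16 library and all but absent elsewhere. With 1 count over the day 6 libraries, in replicate 3, the ratio to day 6 was 496 with a counting interval of 88.6 to 19600. The contrast was 6.54, SE 0.71, adjusted p = 0.00314. The size of this contrast depends on the prior count, and was 7.46 without day 6 replicate 3. A locus described as cytochrome P450 1A1-like (LOC102170823) was at 0.581 ± 0.148 CPM at day 6, then 48.8 ± 28.0 at day 16, and 11.7 ± 8.77 at day 19, with a contrast of 4.21, SE 0.51, adjusted p = 0.00438. LOC100861136, described as cytochrome b reductase 1, an iron-reducing enzyme, was at 319 ± 130.0 CPM at day 16, compared with 88.3 ± 26.2 at day 6 and 115 ± 45.4 at day 19. Its contrast was 1.66, SE 0.31, adjusted p = 0.0246. That call was lost without day 6 replicates 2 or 3, day 16 replicates 1 or 3 or day 19 replicate 3 (adjusted p 0.0522 to 0.125). GPT2, the mitochondrial alanine aminotransferase, was at 322 ± 98.1 CPM at day 16, compared with 137 ± 8.04 at day 6 and 155 ± 53.5 at day 19 (contrast 1.15, SE 0.24, adjusted p = 0.0444). The GPT2 call was lost without each library other than day 19 replicate 1 (adjusted p 0.0509 to 0.201).

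Some secreted proteins and a decoy receptor were also peaks. IGFBP1, which binds insulin-like growth factors and is a product of the ruminant uterine epithelium, gave 183, 38.3 and 126 CPM at day 16 and 15.6, 34.05 and 6.45 CPM at day 19. A single count was seen over the 3 day 6 libraries, in replicate 1, so the ratio to day 6 was 3630 with a counting interval of 652 to 144000. The lowest day 16 library was just above the highest day 19 library. The contrast was 6.98, SE 0.73, adjusted p = 0.00282. The size of this contrast depends on the prior count and was 7.90 without day 6 replicate 1. IGFBP3, a related binding protein, was at 370.5 ± 49.9 CPM at day 16, compared with 116 ± 26.9 at day 6 and 276 ± 42.2 at day 19 (contrast 1.05, SE 0.19, adjusted p = 0.0221). Its call was lost without day 6 replicates 2 or 3, day 16 replicates 1, 2 or 3 or day 19 replicate 3 (adjusted p 0.0518 to 0.121).

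IL1R2, a decoy receptor that binds interleukin 1 without signalling, had 0.464, 0.206 and 0 CPM at day 6, then 511, 201 and 158 at day 16, and 35.8, 111 and 25.6 at day 19. Replicate 1 was the highest day 16 library, and the lowest, replicate 3, was still above day 19 replicate 2. The contrast of IL1R2 was 6.29, SE 0.64, adjusted p = 0.00256, and 5.60 without day 16 replicate 1. FST, the activin-binding protein follistatin, had 149.9, 48.1 and 56.1 CPM at day 16, compared with 34.3, 14.004 and 22.2 at day 6 and 26.3, 17.3 and 11.3 at day 19. All day 16 libraries were above the others, replicate 1 by far the most. The contrast of 2.03, SE 0.41, adjusted p = 0.0363 was 1.33 without that library, and the call was lost without each library other than day 19 replicate 1 (adjusted p 0.051 to 0.174). FAM19A3, which encodes a small secreted protein, was at 18.7 ± 11.1 CPM at day 16, compared with 1.48 ± 0.397 at day 6 and 3.33 ± 2.13 at day 19. Its contrast was 3.06, SE 0.45, adjusted p = 0.00951, and the call was lost without day 16 replicate 1 (adjusted p = 0.0595). SHISA2, a protein known to hold back the maturation of Wnt and FGF receptors, stood at 1.39, 0.824 and 0.487 CPM at day 6, then 40.3, 22.2 and 21.0 at day 16, and 4.08, 9.98 and 2.64 at day 19. Day 16 was clear of all other libraries, with a contrast of 3.62, SE 0.43, adjusted p = 0.00433.

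OVCH1, which encodes ovochymase 1, a serine protease-like protein, stood at 1.86, 1.34 and 0.682 CPM at day 6, then 32.9, 24.0 and 17.3 at day 16, and 1.55, 3.49 and 2.75 at day 19. The lowest day 16 library was far above the highest of the others. Its contrast was 3.74, SE 0.34, adjusted p = 0.00162, and the day 16 level was 18.9 times that of day 6 and 9.48 times that of day 19. PLAT, tissue plasminogen activator, was at 573 ± 187 CPM at day 16, compared with 144 ± 50.004 at day 6 and 257 ± 46.5 at day 19 (contrast 1.58, SE 0.26, adjusted p = 0.0172). The PLAT call was lost without day 6 replicates 2 or 3 or day 16 replicates 1 or 3 (adjusted p 0.0528 to 0.0851). ADAMTS5, a protease that cleaves proteoglycans, was at 146 ± 33.0 CPM at day 16, compared with 66.4 ± 17.8 at day 6 and 66.7 ± 18.8 at day 19 (contrast 1.13, SE 0.23, adjusted p = 0.0353). The ADAMTS5 call was lost without day 6 replicates 2 or 3, day 16 replicates 1, 2 or 3 or day 19 replicate 3 (adjusted p 0.0848 to 0.138). It was the 1 called member of 28 matrix proteases and inhibitors (list median 0.08), and PLAT and CFB were the 2 called of 26 complement and coagulation genes (0.24), with 0 lower in both lists. Among all genes tested 1.72% were called higher. C3, the central complement protein, had all day 16 libraries above the others, at 3021, 3055 and 1614 CPM against 455 to 1342 at day 6 and 344 to 1479 at day 19. It did not pass (adjusted p = 0.126; 0.00426 without day 19 replicate 1).

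MET and LIFR are receptors that were also peaks. MET, the receptor of hepatocyte growth factor, was at 35.1, 43.8 and 38.2 CPM at day 6, then 219, 266 and 173 at day 16, and 89.6, 71.7 and 62.6 at day 19. The 3 days did not overlap, and day 16 was the highest. The contrast was 2.02, SE 0.17, adjusted p = 0.00155, and the day 16 level was 5.62 times that of day 6 and 2.94 times that of day 19. LIFR, the receptor of leukaemia inhibitory factor, a cytokine of implantation, had 273, 256 and 224 CPM at day 16, compared with 54.5, 41.8 and 45.5 at day 6 and 149, 65.002 and 36.7 at day 19. Day 19 replicate 1 was well above the other day 19 libraries but below day 16. The contrast was 2.00, SE 0.34, adjusted p = 0.0189, and the call was lost without day 6 replicates 2 or 3 or day 16 replicates 1, 2 or 3 (adjusted p 0.0564 to 0.0939).

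ERBB3 and ERBB4, receptors of neuregulins in the epidermal growth factor receptor family, were both peaks. ERBB4 was scarce, at 0.0928, 0.206 and 0 CPM at day 6, then 4.42, 3.08 and 6.22 at day 16, and 1.07, 0.799 and 1.16 at day 19. Day 16 was the highest in all 3 libraries. Its 3 counts over the day 6 libraries give a ratio of 48.2 (counting interval 16.1 to 236). Its contrast was 3.77, SE 0.47, adjusted p = 0.00438, and the size of that contrast also depends on the prior count. ERBB3 was abundant, at 373 ± 113 CPM at day 16, compared with 161 ± 1.42 at day 6 and 254 ± 30.4 at day 19 (contrast 0.88, SE 0.19, adjusted p = 0.0457). That call was lost without each library other than day 19 replicate 1 (adjusted p 0.0687 to 0.153), and with upper-quartile scaling (adjusted p = 0.0509).

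CRIM1, a transmembrane protein that binds bone morphogenetic proteins (BMPs), was an abundant peak, at 69.1, 65.5 and 69.7 CPM at day 6, then 1475, 870.4 and 882 at day 16, and 483, 276 and 177 at day 19. All day 16 libraries were above the others, and the contrast was 2.88, SE 0.30, adjusted p = 0.0028. BMPR1B, a BMP receptor, was at 60.3 ± 4.69 CPM at day 16, compared with 28.9 ± 2.45 at day 6 and 22.7 ± 7.96 at day 19 (contrast 1.24, SE 0.20, adjusted p = 0.0166). The BMPR1B call was lost without day 6 replicates 2 or 3 or day 16 replicates 1, 2 or 3 (adjusted p 0.0502 to 0.0802). SMAD9, a signal transducer of BMP receptors, was at 31.1 ± 9.83 CPM at day 16, compared with 15.2 ± 3.35 at day 6 and 8.75 ± 1.90 at day 19 (contrast 1.43, SE 0.24, adjusted p = 0.0172). The SMAD9 call was lost without day 6 replicates 2 or 3 or day 16 replicates 1 or 3 (adjusted p 0.0536 to 0.0728). In the other direction, GDF10, a BMP-related ligand, and SOSTDC1, a secreted antagonist of BMP and Wnt signals, were dips.

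Among transcription regulators, KLF5, a Krüppel-like factor of epithelia, stood at 79.8, 68.0 and 67.9 CPM at day 6, then 136, 137 and 126 at day 16, and 60.7, 52.1 and 44.1 at day 19. The libraries of a day were close together and the day 16 group lay clear of both others. The contrast was 1.12, SE 0.14, adjusted p = 0.00438, with log2 differences of 0.89 against day 6 and 1.35 against day 19. NFKBIZ, a nuclear regulator of NF-kB target genes, was at 73.8, 101 and 73.1 CPM at day 16, compared with 19.5, 19.0 and 15.1 at day 6 and 51.7, 24.3 and 28.1 at day 19. Its day 16 libraries were above all others (contrast 1.73, SE 0.24, adjusted p = 0.00754). KLF5 and NFKBIZ kept their calls without any 1 library. NR4A1, an orphan nuclear receptor and immediate early gene, had 31.3, 18.5 and 93.5 CPM at day 16 against 6.31 to 8.24 at day 6 and 9.42 to 16.3 at day 19. Replicate 3 stood far above the other day 16 libraries. The contrast of 2.34, SE 0.42, adjusted p = 0.0238 was 1.41 without it, and the call was lost without day 6 replicates 1, 2 or 3, day 16 replicates 1 or 3 or day 19 replicate 2 (adjusted p 0.0555 to 0.0758).

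KLF4, a relative of KLF5, was at 59.6 ± 14.7 CPM at day 16, compared with 19.5 ± 6.21 at day 6 and 30.7 ± 5.98 at day 19 (contrast 1.28, SE 0.24, adjusted p = 0.0267). The KLF4 call was lost without day 6 replicate 3, day 16 replicates 1 or 2 or day 19 replicates 2 or 3 (adjusted p 0.059 to 0.135). BCL6, a transcriptional repressor, was at 128 ± 11.8 CPM at day 16, compared with 40.2 ± 6.03 at day 6 and 68.8 ± 24.1 at day 19 (contrast 1.29, SE 0.20, adjusted p = 0.0149). The BCL6 call was lost without day 6 replicate 3 or day 16 replicates 1, 2 or 3 (adjusted p 0.0523 to 0.0697). Of 26 immediate early and heat shock genes 4 were called higher, against 1.72% of all genes, and 0 lower (list median 0.69). NR4A1 and KLF4 of these were peaks. EGR1 and JUN also had all day 16 libraries above the others without passing. EGR1 stood at 165 ± 45.3 CPM at day 16, compared with 22.7 ± 15.8 at day 6 and 60.2 ± 49.1 at day 19 (adjusted p = 0.0574; 0.00313 without day 19 replicate 1). JUN stood at 183 ± 35.6 CPM at day 16, compared with 86.8 ± 25.2 at day 6 and 111 ± 25.9 at day 19 (adjusted p = 0.0776; 0.00604 without that library). Genes of this list also respond to tissue handling, whose part in these values was not tested.

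Of 38 implantation regulators 4 were called higher, FST, LIFR, ERBB3 and KLF5, and all 4 were peaks (list median -0.06). Over all genes tested, 1.72% were called higher, 0.752% were peaks and 0.665% were called lower. IHH, the hedgehog ligand of the uterine epithelium, was the 1 called lower. Its low level was shared by both later days, at 238 ± 24.8 CPM at day 6, then 13.7 ± 5.57 at day 16, and 11.5 ± 4.48 at day 19 (contrast -1.94, SE 0.32, adjusted p = 0.0172). The IHH call was lost without day 16 replicates 1 or 3 (adjusted p 0.0806 to 0.0851).

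Peaks among genes of cell contacts included CGN, OCLN and CDH17. CGN, which the table describes in 1 column as conglutinin and in another as cingulin, a tight junction protein, stood at 25.4, 26.6 and 30.3 CPM at day 6, then 79.3, 115 and 109 at day 16, and 46.4, 49.5 and 57.5 at day 19. No day overlapped another, and the contrast was 1.43, SE 0.16, adjusted p = 0.00314. OCLN, the tight junction protein occludin, was at 67.4 ± 6.62 CPM at day 16, compared with 39.8 ± 4.47 at day 6 and 30.5 ± 7.21 at day 19 (contrast 0.95, SE 0.17, adjusted p = 0.024). The OCLN call was lost without day 6 replicates 1, 2 or 3 or day 16 replicates 1, 2 or 3 (adjusted p 0.0624 to 0.128). CDH17, a cadherin, had 38.6, 13.8 and 11.6 CPM at day 16, compared with 3.99, 0.103 and 0.487 at day 6 and 1.94, 4.19 and 0.740 at day 19. The lowest day 16 library was above all others, but day 6 replicate 1 and day 16 replicate 1 stood apart in their groups. Its contrast of 3.49, SE 0.76, adjusted p = 0.0488 was 4.66 without the former and 2.75 without the latter. The CDH17 call was lost without day 6 replicates 2 or 3, day 16 replicates 1, 2 or 3 or day 19 replicates 2 or 3 (adjusted p 0.0595 to 0.239), and with upper-quartile scaling (adjusted p = 0.0504).

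Of 33 junction genes 4 were called higher and 0 lower, and 5 had all day 16 libraries above the others (list median 0.36). Over all genes tested, 1.72% were called higher and 3.01% lay above in this way. MARVELD2, a protein of tricellular junctions, was 1 of these 5, at 23.9 ± 1.79 CPM at day 16, compared with 15.2 ± 3.49 at day 6 and 12.4 ± 5.04 at day 19 (adjusted p = 0.15; 0.00263 without day 19 replicate 1). CLDN10, a claudin, lay below in all day 16 libraries, at 9.69, 12.1 and 12.9 CPM against 25.6 to 30.7 at day 6 and 18.9 to 40.9 at day 19. Its adjusted p was 0.0554, and it passed without day 19 replicates 1 or 2 (adjusted p = 0.00111 and 0.048), with upper-quartile scaling (0.0487), with DESeq2 (0.00103) and with limma voom (0.0013).

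Besides OVCH1, SLC7A9, BCAT1, TGM5, MET, CGN, KLF5 and BMPR1B, 10 more genes were higher than each other day on its own adjustment. ARMCX4, an armadillo repeat protein, was at 8.26, 7.10 and 8.09 CPM at day 6, then 36.3, 16.97 and 35.2 at day 16, and 7.29, 6.29 and 4.55 at day 19. Day 16 stood clear of the overlapping other days, with a contrast of 2.10, SE 0.26, adjusted p = 0.00438. OSBPL3, an oxysterol-binding protein homologue, was at 35.9 ± 6.51 CPM at day 16, compared with 13.6 ± 1.84 at day 6 and 13.96 ± 2.95 at day 19 (contrast 1.38, SE 0.19, adjusted p = 0.00693). LOC106502327, described as a protease-like protein of an endogenous retrovirus family, was at 37.4, 23.9 and 53.6 CPM at day 16, compared with 9.38, 7.41 and 8.09 at day 6 and 6.12, 2.30 and 2.54 at day 19. Its day 16 libraries were the 3 highest (contrast 2.80, SE 0.33, adjusted p = 0.00397), though reads of such repeated families can be shared between copies and its value is uncertain. These 3 genes kept their calls without any 1 library.

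The other 7 were SLC25A27, a mitochondrial carrier (contrast 2.56), HUNK, a protein kinase (1.40), EPB41L5, a protein of epithelial polarity (1.25), ATP13A4, a P-type ATPase (1.07), RALGAPA2, a regulator of Ral GTPases (1.01), FOXO4, a forkhead factor (0.97), and TRAK1, an adaptor for the transport of mitochondria (0.90). Their adjusted p-values were 0.015 to 0.0239. All 7 lost the call without day 6 replicate 3 and without at least 1 day 16 library. SLC25A27 lost it without day 6 replicates 1, 2 or 3 or day 16 replicate 1 (adjusted p 0.0502 to 0.105). HUNK lost it without day 6 replicate 3 or day 16 replicates 1, 2 or 3 (adjusted p 0.0505 to 0.0689). EPB41L5 lost it without day 6 replicates 1, 2 or 3, day 16 replicate 2 or day 19 replicate 3 (adjusted p 0.0511 to 0.0985). For ATP13A4 the call was lost without day 6 replicates 2 or 3 or day 16 replicates 1 or 2 (adjusted p 0.0528 to 0.0916), and for RALGAPA2 without day 6 replicate 3 or day 16 replicates 1, 2 or 3 (adjusted p 0.059 to 0.0808). For FOXO4 it was lost without day 6 replicates 1, 2 or 3, day 16 replicates 1 or 3 or day 19 replicate 3 (adjusted p 0.0594 to 0.0787), and for TRAK1 without day 6 replicates 2 or 3, day 16 replicates 1, 2 or 3 or day 19 replicates 2 or 3 (adjusted p 0.0524 to 0.114).

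Prostaglandin genes gave 4 calls above the mean and 1 below among 22 tested (list median 0.19). The shares over all genes were 1.72% above and 0.665% below. PTGS2, the inducible cyclooxygenase, was at 5.01, 2.06 and 2.63 CPM at day 6, then 149, 47.3 and 118 at day 16, and 69.2, 28.7 and 7.51 at day 19. Day 19 replicate 1 lay above the lowest day 16 library, so PTGS2 was no peak. Its contrast was 3.29, SE 0.58, adjusted p = 0.0213, and the call was lost without day 6 replicates 2 or 3, day 16 replicates 1 or 3 or day 19 replicate 2 (adjusted p 0.0517 to 0.105). PLA2G4A, the phospholipase that frees arachidonic acid for this pathway, was the called member without overlap, at 64.8, 58.5 and 41.1 CPM at day 16, compared with 22.1, 19.98 and 17.8 at day 6 and 25.6, 40.9 and 24.8 at day 19. The lowest day 16 library was just above day 19 replicate 2 (contrast 1.15, SE 0.21, adjusted p = 0.025). The PLA2G4A call was lost without day 6 replicates 1, 2 or 3, day 16 replicates 1 or 2 or day 19 replicate 3 (adjusted p 0.0523 to 0.13). PTGER2, a receptor of prostaglandin E2, had all day 16 libraries above the others at 11.6 to 15.3 CPM. Day 19 replicate 1, at 10.49 CPM, was far from the other day 19 libraries at 1.30 and 0.952 (adjusted p = 0.314; 0.000222 without that library).

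Of 7 tested uterine gland markers 4 were called higher, against 1.72% of all genes, and 0 lower (list median 1.12). KLF5 and PAX8 of these were peaks. The 9 such genes in the table summed to 739 to 1150 CPM in the day 16 libraries. That was above the 253 to 391 of day 6 and overlapped the 1060 to 4170 of day 19, the day with the highest sum. PAX8, a transcription factor of the glands, was at 41.5, 32.3 and 31.2 CPM at day 6, then 116, 89.2 and 102 at day 16, and 62.3, 74.99 and 63.05 at day 19. Day 16 lay above day 19, and day 19 above day 6 (contrast 1.08, SE 0.15, adjusted p = 0.00736). The PAX8 call was lost without day 16 replicate 1 (adjusted p = 0.0564). PIGR, which carries immunoglobulins across epithelium, had 42.4, 145 and 69.4 CPM at day 16, which overlapped the 27.6, 78.4 and 33.1 CPM of day 19. Its contrast was 3.76, SE 0.44, adjusted p = 0.00393, and 3.15 without day 16 replicate 2. In bulk samples, more cells of a type and more RNA per cell cannot be told apart.

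Dips at day 16 were fewer than peaks. ATP6V1C2, a subunit of the proton pump of organelles and apical membranes, had 123, 117 and 105 CPM at day 6, then 6.63, 5.58 and 3.70 at day 16, and 44.3, 14.2 and 14.9 at day 19. The day 19 libraries stood between the other days, with replicate 1 the highest of them. The contrast was -3.33, SE 0.43, adjusted p = 0.00595. NME9, a member of the nucleoside diphosphate kinase family, had 0.842, 1.37 and 1.35 CPM at day 16, compared with 20.6, 19.5 and 23.01 at day 6 and 3.01, 5.59 and 3.17 at day 19. Day 16 was the lowest in all 3 libraries and day 6 the highest (contrast -2.92, SE 0.32, adjusted p = 0.00314). Both genes kept their calls without any 1 library.

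**Figure D3:**
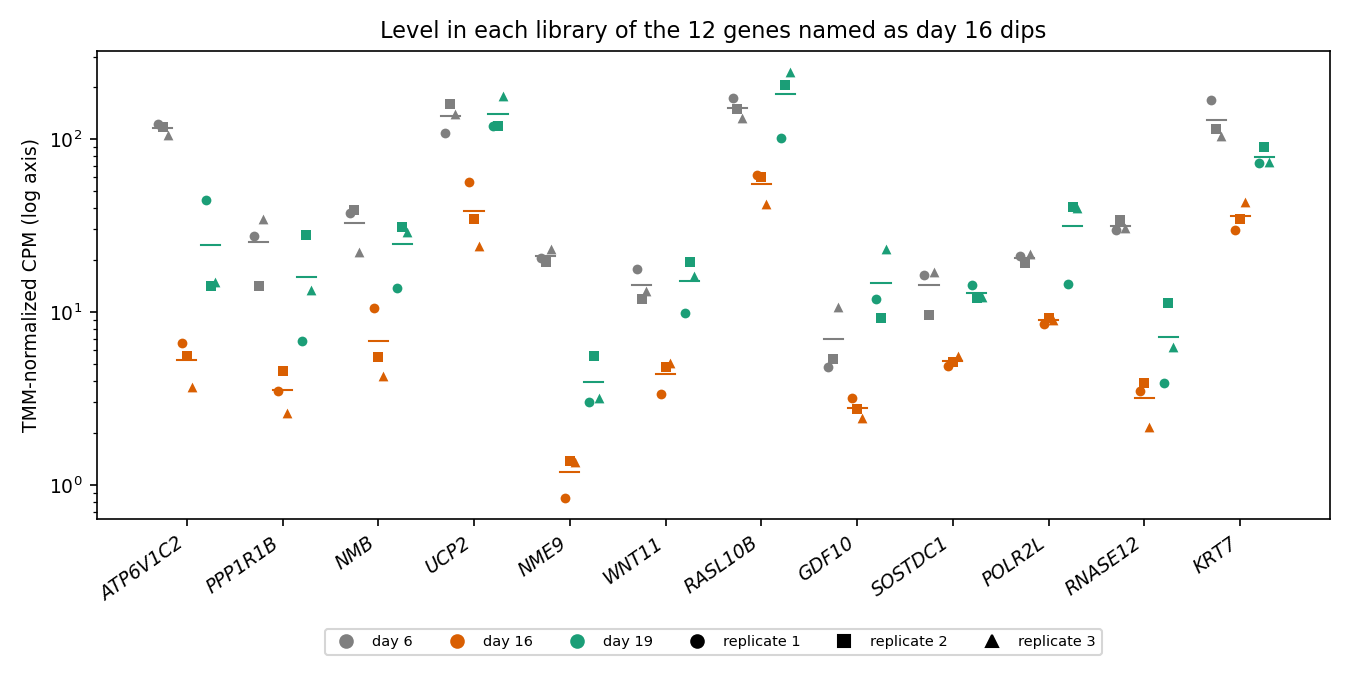
Level of 12 named dip genes in each library, in TMM-normalized CPM on a log axis. Colour gives the day, marker shape the replicate number, and the short line the mean of 3 libraries. The 3 orange day 16 points lie below the 6 others in each of the 12 genes, as the rule that chose them requires. The day 19 mean ranges from below the day 6 mean (ATP6V1C2) to above it (GDF10).

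UCP2, an uncoupling protein of the inner mitochondrial membrane, was at 108, 159 and 140.3 CPM at day 6, then 56.7, 34.3 and 24.2 at day 16, and 119, 119.5 and 178 at day 19. Days 6 and 19 overlapped and day 16 lay below both (contrast -1.84, SE 0.30, adjusted p = 0.0155). The UCP2 call was lost without day 16 replicate 2 (adjusted p = 0.0809). WNT11, a Wnt ligand, showed the same shape, at 4.40 ± 0.902 CPM at day 16, compared with 14.3 ± 3.14 at day 6 and 15.1 ± 4.86 at day 19 (contrast -1.73, SE 0.29, adjusted p = 0.0172). The WNT11 call was lost without day 6 replicate 3 or day 16 replicates 1, 2 or 3 (adjusted p 0.0517 to 0.0978). RASL10B, a small GTPase of the Ras family, was at 54.998 ± 10.96 CPM at day 16, compared with 151 ± 20.1 at day 6 and 183 ± 73.9 at day 19 (contrast -1.60, SE 0.29, adjusted p = 0.022). The RASL10B call was lost without day 6 replicates 1, 2 or 3 or day 16 replicates 1, 2 or 3 (adjusted p 0.0523 to 0.0977). These 3 genes and NME9 were lower than each other day on its own adjustment, together with C27H8orf4, HMGCS1 and C1QTNF1. C27H8orf4 stood at 79.4, 85.4 and 73.6 CPM at day 16, compared with 244, 262 and 252 at day 6 and 135, 144 and 158 at day 19. The 3 days were separate, and the contrast of -1.27, SE 0.14, adjusted p = 0.00314 held without any 1 library. C1QTNF1, a secreted relative of complement C1q, was at 45.03 ± 8.27 CPM at day 16, compared with 73.6 ± 7.44 at day 6 and 87.1 ± 2.47 at day 19 (contrast -0.83, SE 0.15, adjusted p = 0.0252). The C1QTNF1 call was lost without day 6 replicates 1, 2 or 3, day 16 replicates 1 or 3 or day 19 replicate 3 (adjusted p 0.0551 to 0.134).

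Secreted signals were among the remaining dips. NMB, the peptide neuromedin B, was at 6.75 ± 3.34 CPM at day 16, compared with 32.8 ± 9.13 at day 6 and 24.6 ± 9.45 at day 19 (contrast -2.08, SE 0.39, adjusted p = 0.0283). The NMB call was lost without day 6 replicates 1, 2 or 3, day 16 replicates 2 or 3 or day 19 replicates 2 or 3 (adjusted p 0.0522 to 0.135). GDF10 was at 4.83, 5.35 and 10.7 CPM at day 6, then 3.16, 2.73 and 2.43 at day 16, and 11.9, 9.19 and 23.3 at day 19. Day 16 had the 3 lowest values, close to each other (contrast -1.87, SE 0.40, adjusted p = 0.0463). The GDF10 call was lost without day 6 replicates 1, 2 or 3, day 16 replicates 1, 2 or 3 or day 19 replicate 3 (adjusted p 0.0633 to 0.181). SOSTDC1 was at 5.19 ± 0.376 CPM at day 16, compared with 14.4 ± 4.15 at day 6 and 12.8 ± 1.25 at day 19 (contrast -1.39, SE 0.24, adjusted p = 0.0189). The SOSTDC1 call was lost without day 6 replicates 1 or 3 or day 16 replicates 1, 2 or 3 (adjusted p 0.0508 to 0.105).

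PPP1R1B, an inhibitor of protein phosphatase 1, was at 3.55 ± 0.973 CPM at day 16, compared with 25.5 ± 10.5 at day 6 and 15.99 ± 10.8 at day 19 (contrast -2.51, SE 0.50, adjusted p = 0.0349). The PPP1R1B call was lost without day 6 replicates 1 or 3, day 16 replicates 1, 2 or 3 or day 19 replicate 3 (adjusted p 0.0617 to 0.146). KRT7, an epithelial keratin, was at 169, 115 and 105 CPM at day 6, then 29.9, 34.6 and 43.5 at day 16, and 72.6, 89.9 and 73.7 at day 19. Day 16 was the lowest day (contrast -1.49, SE 0.21, adjusted p = 0.00804). The KRT7 call was lost without day 16 replicates 1 or 2 (adjusted p 0.0509 to 0.0592). The summed level of the 18 epithelial markers overlapped between days, at 1430 to 1890 CPM in day 6 libraries, 1630 to 1870 in day 16 libraries and 1390 to 2410 in day 19 libraries. KRT7 was the 1 of the 18 called lower, and MAL2 the 1 called higher, without being a peak. Their contrasts were above 0 for 11 and below 0 for 7 (list median 0.255). Of all genes, 1.72% were called higher and 0.665% lower. RNASE12, a member of the ribonuclease A family, had 3.48, 3.87 and 2.16 CPM at day 16, compared with 29.9, 34.1 and 30.7 at day 6 and 3.89, 11.3 and 6.24 at day 19. The highest day 16 library thus nearly equalled the lowest of day 19. Its contrast was -2.25, SE 0.36, adjusted p = 0.015, and against day 19 alone it was not called (edgeR, adjusted p = 0.124). The RNASE12 call was lost without day 16 replicates 1, 2 or 3 (adjusted p 0.0512 to 0.0745). POLR2L, a subunit of RNA polymerases, had a contrast of -1.51, SE 0.32, adjusted p = 0.0406, lost without each library other than day 19 replicate 1 (adjusted p 0.0737 to 0.166).

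Amino acid response and serine synthesis genes gave 5 calls below the mean and 1 above, GPT2, among 25 tested (list median -0.12). The shares over all genes were 0.665% below and 1.72% above. PHGDH, the first enzyme of serine synthesis, was the called dip, at 70.4, 82.7 and 55.96 CPM at day 6, then 6.21, 5.70 and 5.68 at day 16, and 7.38, 15.8 and 12.9 at day 19. The day 16 libraries were nearly equal and below all others, and the contrast of -2.30, SE 0.27, adjusted p = 0.00397 held without any 1 library. PSAT1, the next enzyme of that pathway, was about as low at day 19 as at day 16, at 464 ± 18.3 CPM at day 6, then 19.3 ± 5.77 at day 16, and 15.4 ± 6.20 at day 19 (contrast -2.13, SE 0.31, adjusted p = 0.009). The PSAT1 call was lost without day 16 replicate 2 (adjusted p = 0.0509). MTHFD2, a mitochondrial folate enzyme, had a like course, at 257 ± 1.80 CPM at day 6, then 49.8 ± 5.96 at day 16, and 51.3 ± 12.3 at day 19 (contrast -1.21, SE 0.18, adjusted p = 0.00979). The MTHFD2 call was lost without day 16 replicates 1 or 3 (adjusted p 0.0625 to 0.0745).

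Outside that list, ODC1, the first enzyme of polyamine synthesis, was a dip at 35.8 ± 7.75 CPM at day 16, compared with 189 ± 43.3 at day 6 and 51.0 ± 7.95 at day 19 (contrast -1.46, SE 0.22, adjusted p = 0.00955). The ODC1 call was lost without day 16 replicate 2 (adjusted p = 0.0508). MFSD2A, a transporter of lysophospholipids, was at 121, 93.4 and 131 CPM at day 6, then 8.85, 9.23 and 8.02 at day 16, and 14.8, 20.7 and 13.4 at day 19. Day 16 lay below day 19 and far below day 6 (contrast -2.31, SE 0.21, adjusted p = 0.00162). RCN1, a calcium-binding protein of the endoplasmic reticulum, was at 159.5 ± 19.95 CPM at day 16, compared with 877 ± 73.7 at day 6 and 206 ± 32.2 at day 19 (contrast -1.42, SE 0.18, adjusted p = 0.00546). The calls of MFSD2A and RCN1 against the mean held without any 1 library. Against day 19 alone, ODC1, MFSD2A and RCN1 were not called (edgeR, adjusted p = 0.21, 0.0703 and 0.263). Nor, among others, were PHGDH and the peaks IL1R2, IGFBP1, SLC11A2, SLC26A7 and CRIM1 (edgeR, adjusted p 0.0524 to 0.0926).

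Of 36 genes of cholesterol synthesis and lipid handling 4 were called lower and 0 higher, and 5 had all day 16 libraries below the others (list median -0.35). Over all genes tested, 0.665% were called lower and 2.41% lay below in this way. HMGCS1, which makes the substrate of the rate-limiting enzyme of cholesterol synthesis, was at 90.6, 89.995 and 81.6 CPM at day 6, then 60.03, 53.5 and 51.8 at day 16, and 108, 103 and 99.4 at day 19. The day 16 libraries were below those of both other days by less than 1 on the log2 scale (contrast -0.79, SE 0.13, adjusted p = 0.0158). The HMGCS1 call was lost without day 6 replicates 2 or 3 or day 16 replicates 1, 2 or 3 (adjusted p 0.0505 to 0.0879). LSS, which closes the sterol rings, was at 29.0 ± 5.48 CPM at day 16, compared with 75.04 ± 11.9 at day 6 and 51.6 ± 6.11 at day 19 (contrast -1.10, SE 0.18, adjusted p = 0.0171). The LSS call was lost without day 6 replicate 2 or day 16 replicates 1 or 3 (adjusted p 0.0528 to 0.0939). MVD, a further enzyme of the pathway, also lay below in all 3 libraries without passing. It stood at 22.4 ± 1.91 CPM at day 16, compared with 35.9 ± 6.65 at day 6 and 50.9 ± 22.8 at day 19 (adjusted p = 0.165; 0.00098 without day 19 replicate 1).

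Cell cycle genes mostly did not pass. Of 46 tested 2 were called lower, CCNB1 and BIRC5, and 0 higher, where 0.665% of all genes were called lower. All day 16 libraries lay below the others for 9 of them, as for 2.41% of all genes, and 41 had a contrast below 0, with a list median of -0.69. BIRC5, an inhibitor of apoptosis needed for cell division, was at 10.9, 2.57 and 11.5 CPM at day 6, then 0.737, 0.456 and 0.270 at day 16, and 2.33, 5.39 and 2.86 at day 19. Every day 16 library was below 1 CPM, and day 19 overlapped day 6 (contrast -3.46, SE 0.65, adjusted p = 0.027). The BIRC5 call was lost without day 6 replicates 1 or 3, day 16 replicates 1, 2 or 3 or day 19 replicate 3 (adjusted p 0.0504 to 0.121), and with limma voom (adjusted p = 0.057). KIF2C, a kinesin of the mitotic spindle outside the list, was also a dip, at 0.307 ± 0.181 CPM at day 16, compared with 2.55 ± 0.700 at day 6 and 1.89 ± 0.322 at day 19 (contrast -2.79, SE 0.50, adjusted p = 0.0209). The KIF2C call was lost without day 6 replicates 1 or 3 or day 16 replicates 1, 2 or 3 (adjusted p 0.0547 to 0.0939).

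RRM2, KIF20A and AURKB, genes of DNA synthesis and mitosis, lay below in all 3 day 16 libraries without passing. RRM2 was at 0.808 ± 0.312 CPM at day 16, compared with 6.52 ± 3.23 at day 6 and 2.94 ± 1.73 at day 19 (adjusted p = 0.0566; 0.00913 without day 19 replicate 1). KIF20A was at 0.619 ± 0.298 CPM at day 16, compared with 6.34 ± 3.83 at day 6 and 2.62 ± 1.17 at day 19 (adjusted p = 0.0647; 0.0159 without that library). For AURKB the level was 0.388 ± 0.257 CPM at day 16, compared with 4.13 ± 2.64 at day 6 and 1.60 ± 1.14 at day 19 (adjusted p = 0.114; 0.0241 without that library). CCNB1, the cyclin of entry into mitosis, was no dip, since its day 19 libraries, 2.23, 2.60 and 1.06 CPM, overlapped those of day 16, 3.48, 2.05 and 3.61 CPM (contrast -1.85, SE 0.32, adjusted p = 0.0183). The CCNB1 call was lost without day 6 replicate 3 or day 16 replicates 1, 2 or 3 (adjusted p 0.059 to 0.0859).

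Genes called against the mean without being peaks include programmes that days 16 and 19 share. Of 42 interferon-stimulated genes 23 were called higher, 54.8% against 1.72% of all genes. For 0 of the 42 did all day 16 libraries lie above all others, against 3.01% of all genes, so this 0 alone says little. The list's median difference was 3.45 against day 6 and -0.35 against day 19. ISG15, a ubiquitin-like protein, was at 4.92, 2.78 and 6.24 CPM at day 6, then 892, 1522 and 478 at day 16, and 1989, 2644 and 2289 at day 19. All of day 16 lay below all of day 19 (contrast 3.22, SE 0.35, adjusted p = 0.00324). RSAD2, an antiviral enzyme, was at 1146, 2577 and 614 CPM at day 16, interleaved with the 1677, 565 and 432 CPM of day 19. Its contrast was 4.04, SE 0.52, adjusted p = 0.0055, and 3.32 without day 16 replicate 2. Of 24 genes of programmed cell death 6 were called higher, against 1.72% of all genes (list median 0.74). Peaks numbered 0 among them, near the 0.752% of all genes.

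Of 33 uterine secretory proteins 8 were called higher, against 1.72% of all genes, and 0 lower (list median 0.02). IGFBP1, IGFBP3 and FGF10 of these were peaks. FGF10, a growth factor made by stroma for epithelium, was at 31.2, 37.1 and 29.9 CPM at day 16, compared with 7.61, 4.84 and 8.68 at day 6 and 28.3, 19.4 and 14.3 at day 19. The lowest day 16 library was just above the highest of day 19 (contrast 1.44, SE 0.24, adjusted p = 0.0183). The FGF10 call was lost without day 16 replicates 1, 2 or 3 (adjusted p 0.0558 to 0.0919). The galectin LGALS15 had 1289.9, 1261 and 996 CPM at day 16, within the range of day 19, 831, 3856 and 1397 CPM. Its 9 counts at day 6 all lie in replicate 1, and its contrast of 5.58, SE 0.64, adjusted p = 0.0039 was 7.88 without that library. GRP, the precursor of gastrin-releasing peptide, had every day 19 library above day 16, at 4967, 4198 and 2696 CPM against 807, 2177 and 1782 CPM (contrast 3.37, SE 0.39, adjusted p = 0.00375). Of 31 cytokines, chemokines and NF-kB targets 6 were called higher and 0 lower (list median 0.42), and IL1R2, NFKBIZ and TNFAIP2 were peaks.

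**Figure D4:**
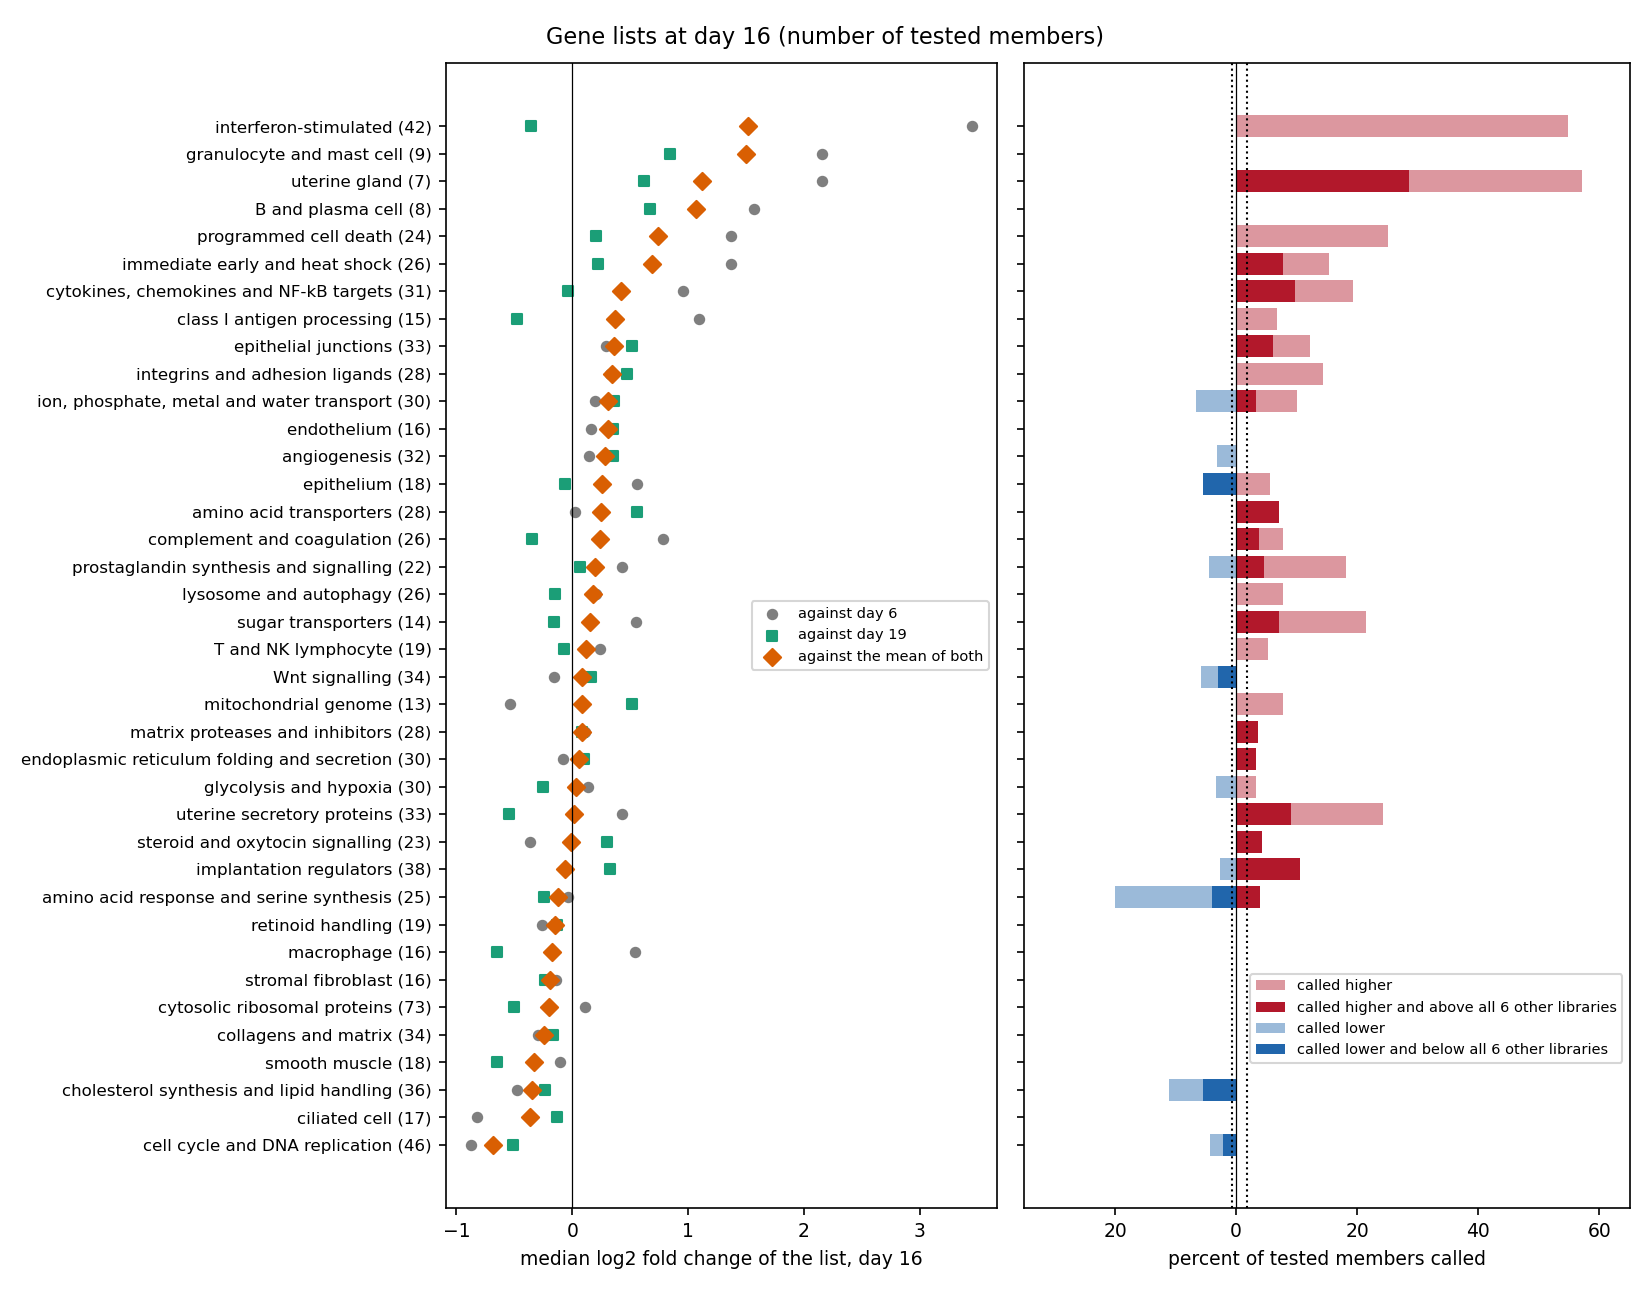
Gene lists with at least 5 tested members, ordered by their median contrast. The left panel gives the median log2 fold change at day 16 against day 6, against day 19 and against the mean of both, and the right panel the percent of tested members called higher (red, right) or lower (blue, left), darker where the day 16 libraries lay beyond all 6 others. Dotted lines mark the shares over all genes, 1.72% and 0.665%. The interferon-stimulated list has the widest gap between the day 6 and day 19 medians and no dark bar, whereas the implantation regulators and amino acid transporters called higher are all dark.

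Cell type markers were read beside these results. Of the smooth muscle, stromal fibroblast, endothelium, macrophage and ciliated cell lists, 0 members were called (edgeR; 1, 4, 2, 0 and 0 at an unadjusted p under 0.05). With 2.39% of all genes called, 0 in lists this short is near that share. At the unadjusted p, 8.67% of all genes were higher and 7.26% lower. Stromal fibroblast markers summed to 19700 to 23900 CPM in the day 16 libraries. That was below the 30500 to 33400 of day 6 and overlapped the 21200 to 30300 of day 19. Of the 16 tested, 12 had a contrast below 0 and 4 above. Among ciliated cell markers 16 lay below 0 and 1 above. Smooth muscle markers summed to 27200 to 28700 CPM in the day 16 libraries, within the 12400 to 44200 of day 6 and below the 35700 to 60900 of day 19. Endothelial markers summed to 1450 to 1780 CPM in the day 16 libraries, against 1110 to 1480 for day 6 and 952 to 1100 for day 19. Of the 16 endothelial markers tested, 10 had a contrast above 0 and 6 below (list median 0.31). VWF and TEK were the 2 of these 16 with all day 16 libraries above the others, as for 3.01% of all genes. Neither passed (adjusted p = 0.0886 and 0.101). Both passed without day 19 replicate 1 (adjusted p = 0.0087 and 0.000951), with DESeq2 (0.00275 and 0.0245) and with limma voom (0.00456 and 0.000879). VWF was at 658 ± 127 CPM at day 16, compared with 458 ± 32.3 at day 6 and 382 ± 33.9 at day 19, and TEK at 66.0 ± 10.3 CPM at day 16, compared with 41.9 ± 4.55 at day 6 and 33.2 ± 12.8 at day 19. The part of endothelial or stromal content in the peaks and dips was not tested.

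Of 9 tested granulocyte and mast cell markers 0 were called (edgeR; 5 at an unadjusted p under 0.05), and all 9 had a contrast above 0 (list median 1.502). For this and the next list, the shares over all genes were 1.72% called higher, 0.665% called lower and 8.67% higher at that unadjusted p. The 13 such genes in the table summed to 26.3 to 47.5 CPM in the day 16 libraries, above the 15.3 to 21.1 of day 6 and overlapping the 25.5 to 36.5 of day 19. MPO, the myeloperoxidase of neutrophils, had 0 counts in the 3 day 16 libraries. Of 19 tested T and NK lymphocyte markers 1, CD7, a surface protein of these cells, was called higher and 0 lower (list median 0.11). CD7 was no peak, at 12.3 ± 2.57 CPM at day 6, then 60.1 ± 5.83 at day 16, and 68.7 ± 20.9 at day 19 (contrast 1.05, SE 0.21, adjusted p = 0.0326). The CD7 call was lost without day 6 replicates 2 or 3, day 16 replicates 1, 2 or 3 or day 19 replicate 3 (adjusted p 0.0634 to 0.141). The 20 such genes in the table summed to 265 to 384 CPM in the day 16 libraries, against 173 to 246 for day 6 and 289 to 417 for day 19. The part of these cells in the results was not tested.

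The B and plasma cell list had 0 of 8 called (edgeR; 4 at an unadjusted p under 0.05), with 3 members above all other libraries: MZB1, JCHAIN and CD79A. Of all genes, 2.39% were called, 8.67% were higher at that unadjusted p and 3.01% lay above in this way. Its summed level was 355 CPM in day 16 replicate 1 and 89.1 and 67.6 in replicates 2 and 3, against 26.2 to 53.4 in day 6 libraries and 55.0 to 76.3 in day 19 libraries. JCHAIN, the joining chain of secreted antibodies, was at 210.3, 32.2 and 24.1 CPM at day 16, and its contrast of 2.87 (adjusted p = 0.0814) was 1.21 without replicate 1. Day 16 replicate 1 was also the highest day 16 library for IL1R2, IGFBP1, FST, CDH17, EMB and HSD11B1, and the part of these cells in those values was not tested. Without that library IL1R2, IGFBP1, EMB and HSD11B1 kept their calls, and FST and CDH17 lost them.

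Trophoblast and conceptus markers summed to 47.4 to 108 CPM in the day 16 libraries, 17.6 to 25.5 in those of day 6 and 111 to 133 in those of day 19. The table held 11 such genes, of which 4 were tested and 0 called (edgeR; 1 at an unadjusted p under 0.05). Of all genes, 2.39% were called and 8.67% were higher at that unadjusted p. POU5F1 had 0 counts throughout, and the part of these markers in the results was not tested. Mitochondrial genome transcripts held 1.94% to 2.11% of the counts in day 16 libraries, between the 2.91% to 3.27% of day 6 and the 0.639% to 1.54% of day 19. Of these 13 genes 1, ND4L, was called against the mean, at 239 ± 20.7 CPM at day 6, then 161 ± 15.96 at day 16, and 33.2 ± 7.62 at day 19, stepwise lower and no peak (contrast 0.85, SE 0.16, adjusted p = 0.0284). The ND4L call was lost without each library other than day 19 replicate 1 (adjusted p 0.0611 to 0.139).

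How many genes were called depended on the library left out. Without any 1 library other than day 19 replicate 1, 82 to 190 genes were higher and 21 to 69 lower, and without that library 2931 and 2196. Peaks and dips numbered 40 to 113 and 11 to 36 in the former fits, and 1023 and 915 without day 19 replicate 1. All 384 genes called with 9 libraries were among those called without it. With the ribosomal protein level of each library as an added term, an alternative chosen after the data were seen, 1141 and 571 genes were called, again with all 384 among them. Of 107 called genes followed one by one, 40 kept their call without any 1 library. Among these 40 are SLC7A9, SLC5A1, IGFBP1, IL1R2, HSD11B1, BCAT1, OVCH1, MET, KLF5, ATP6V1C2, NME9 and PHGDH.

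**Figure D5:**
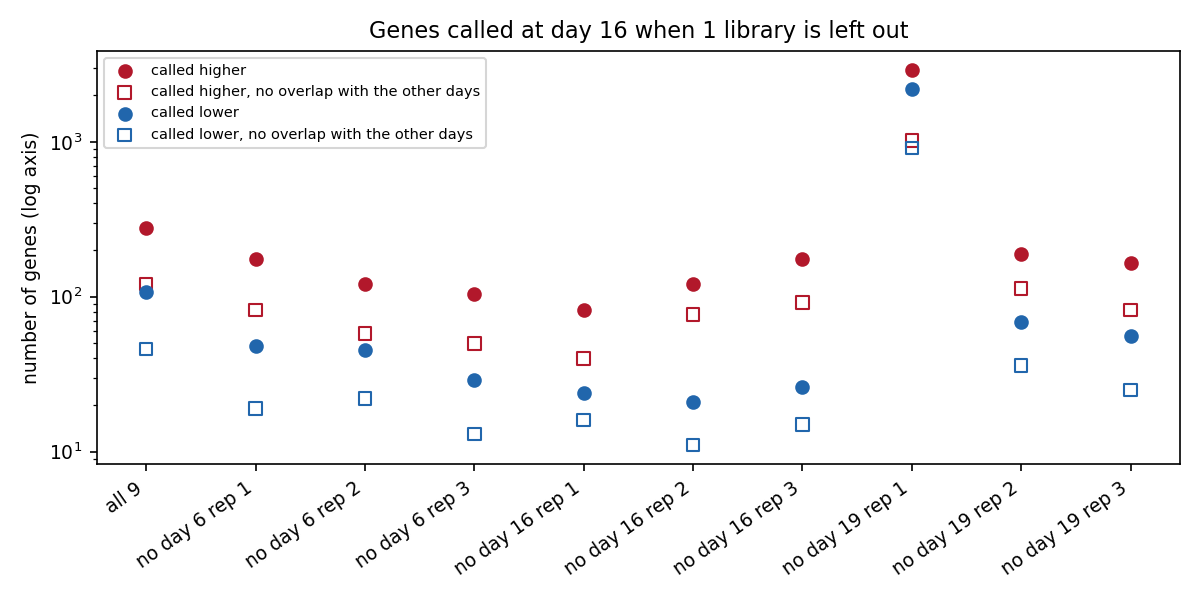
Number of genes called higher (red) and lower (blue) at day 16 against the mean of the other days, with all 9 libraries and without each in turn, on a log axis. Filled circles are all calls and open squares those whose day 16 libraries do not overlap the other days. Counts fall below the value with all 9 libraries except without day 19 replicate 1, where calls reach 2931 and 2196.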

How the data were processed

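Per the labels' protocols, Trizol was used for extraction, and poly(A) RNA was selected and broken up with RNase III. The table holds raw counts (whole numbers of reads for each gene, 1 column per library), as the authors deposited it. The aligner, the counter, the genome build and whether counting was stranded were not given in the sources used here. Reads of close relatives, such as LGALS15 and LGALS16, may be split between rows.

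The test was edgeR 4.0.16 under R 4.3.3 (TMM scaling, filterByExpr by day, robust quasi-likelihood fit of all 9 libraries, common biological coefficient of variation 0.318). The contrast was day 16 minus 0.5 times each other day. Calls are at 0.05 after Benjamini-Hochberg adjustment over 16098 genes, and every adjusted p comes from this test unless another tool is named. The stricter test took the larger of a gene's p-values against day 6 and day 19. Expression is TMM-normalized CPM. Counting intervals (95%) cover counting error only. Each SE is the size of the contrast divided by the square root of its F statistic. It is thus approximate, most of all for genes near 0 on a day. The fit was also run on simulated counts with the same spread for every gene and no outlying library. That run therefore cannot show how the fit behaves with a library such as day 19 replicate 1.

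Named genes were, per direction, the 12 with the largest smaller change against day 6 and day 19, among called genes without overlap, with a true symbol and an average log2 CPM of at least 3. Up to 4 members without overlap per gene list were added, at an average log2 CPM of at least 1. All other genes named were chosen after their values were seen. The members, the 41 lists and this rule were chosen with earlier results of these data known. For 587 of 9672 rows named by a locus, RefSeq (ARS1.2) gave a symbol. Alternatives were DESeq2 1.42.0, limma 3.58.1 (voom with quality weights), other scalings, filters and designs, and leaving out each library.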

Additional observations from a re-analysis of the deposited data

How the results depend on the processing

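With all 9 libraries, 277 genes were called higher and 107 lower against the mean, of which 121 and 46 were peaks and dips, and the stricter test called 0 and 0. In that order, DESeq2 gave 652, 388, 254, 175, 32 and 16. Limma voom with quality weights gave 2860, 1939, 437, 311, 106 and 38. With the ribosomal protein level as a term, added after the data were seen, the numbers were 1141, 571, 348, 215, 8 and 2. An adjusted p under 0.10 gave 485, 209, 206, 102, 0 and 0. Adjusting each pairwise comparison on its own, also added later, gave 18 peaks and 7 dips, but 130 and 74 with DESeq2, 579 and 371 with voom, 209 and 89 with the ribosomal term, and 0 and 0 with the replicate block. Without 1 library it gave 0 to 488 and 0 to 390, the highest without day 19 replicate 1. A model that joins days 6 and 19 into 1 group, so that their difference counts as spread, called 0 genes higher and 0 lower against the mean (the stricter test cannot be run in it), and there GRP and ISG15 had contrasts of -0.3175 and -0.262. Other scalings, other filters and a fit without robust estimation kept the first 4 counts within 1.5 times and the stricter test at 0 and 0, and the stricter filter gave 11 dips by the pairwise rule. The share of higher calls was 72.1%, but 62.7% with DESeq2, 59.6% with voom, 57.2% without day 19 replicate 1, and 85.1% and 87.1% without day 16 replicates 2 and 3. Without 1 library, higher genes ranged from 82 to 2931, lower genes from 21 to 2196, peaks from 40 to 1023, dips from 11 to 915, and the stricter test from 0 to 65 and from 0 to 38. The highest value of each range is without day 19 replicate 1, and the cause was not tested.

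Same-numbered libraries of different days did not deviate together (correlations -0.26 to 0.195), so the replicate numbers were not taken to pair them. With the replicate block, 189 genes were higher and 47 lower, 83 and 20 of them as peaks and dips, and the stricter test called 0 and 0; 225 of the 384 called genes were shared. Depth limits the genes near 0 at day 6, such as TGM5, IGFBP1 and SLC5A1, whose contrasts depend on the prior count.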
